A study of Mus musculus with 6 samples.

Results

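The genes described here are 8 markers of the ciliary margin, the rim of the developing retina next to the lens. They were chosen by name from a list of peripheral retina markers that lie outside the Wnt and collagen families. All 8 (Msx1, Otx1, Cdo1, Gas1, Wfdc1, Zic1, Zic2 and Opcml) had a row among the 55487 counted genes, and all 8 were among the 17275 genes kept by the filter on low counts. Their levels were compared between 3 retina libraries labelled Foxp1 cKO and 3 labelled control, from C57BL/6 mouse embryos of embryonic day 16.5. The genotype labels are Foxp1 fl/fl, Six3-Cre for the first group and Foxp1 fl/fl for the second, so that both groups carry the floxed alleles and the Cre is the labelled difference. Six3 sequence drives the Cre in the developing retina, and the labels do not say which margin cells it reaches. A library holds both retinas of 1 animal, and the 6 animals were littermates. Total counts per library ranged from 23707761 to 25714620.

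The ciliary margin gives rise to the epithelium of the ciliary body and iris. It lies between the neural retina, the pigment epithelium, the lens and the mesenchyme around the eye. Wnt and BMP signals are known to promote margin identity at the expense of neural retina. Margin cells are a small share of the retina, and several of the markers are also made elsewhere in the eye, so a whole-retina library measures the sum over all of these cells. Fewer cells of a type and less RNA per cell cannot be told apart in such libraries.

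The labels were checked first on the targeted gene and on sex-linked genes. Foxp1 had 1213, 1019 and 1096 counts in labelled control 1, 2 and 3 and 1850, 1816 and 1742 counts in labelled cKO 1, 2 and 3. It was higher in the libraries labelled cKO, against the label (log2 fold change 0.65, SE 0.07, edgeR adjusted p 4.63e-05). The authors' deposited table for cKO against control gives Foxp1 a log2 fold change of -0.60. Which exons the loxP sites flank is not stated in the labels. A count over the whole gene includes reads from exons outside them, and their part in the higher level was not tested. Xist and 4 Y-linked genes matched the labelled sex in 4 of 6 libraries and went against it in control 2 and cKO 2. The groups are therefore called labelled cKO and labelled control throughout, and every fold change is labelled cKO over labelled control. Control 2, labelled female, had 13 Xist counts and 3091 Y-linked counts, and cKO 2, labelled male, had 14143 and 2. Exchanging the labelled groups by replicate number, or control 2 and cKO 2 alone, would give every library its labelled sex. The 2 exchanges differ for Foxp1. With control 2 and cKO 2 alone exchanged, its counts would be 1213, 1816 and 1096 in control and 1850, 1019 and 1742 in cKO, which overlap. The deposited sign is opposite for Foxp1 and for 7 of the 8 marker genes. Whether the groups are exchanged in the count columns was not tested, and with exchanged groups every direction below would turn. Fold changes of the 8 genes are also given without control 2 and cKO 2. The 8 retina markers (among them Rax and Atoh7) summed to 2741 to 2855 CPM (counts scaled by library size, per 1000000) in the labelled control group and 2713 to 2995 CPM in the labelled cKO group. Of these 8, edgeR called 1, Atoh7 (log2 fold change 0.30, adjusted p 0.018), while 3 had an unadjusted p below 0.05 and DESeq2 called 2. Over all tested genes edgeR called 0.781% and 16.5% had an unadjusted p below 0.05. DESeq2 called 9.61% of all genes given an adjusted p.

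None of the 8 marker genes passed an edgeR adjusted p of 0.05. Over all tested genes, 0.781% passed in either direction, 0.295% towards higher and 0.486% towards lower levels in labelled cKO. At an unadjusted p below 0.05 there were 3 of the 8 (Gas1, Cdo1 and Opcml), where 16.5% of all tested genes lay. DESeq2 gave an adjusted p for 3 of the 8 and called 1 of these, Gas1, where it called 9.61% of all genes given one. By limma-voom 0 of the 8 and 0.0753% of all tested genes passed. Values did not overlap between the labelled groups for the same 3 genes, against 20.1% of all tested genes. Gas1 and Opcml were on the lower side in the libraries labelled cKO and Cdo1 on the higher side. Of the 8 fold changes 4 were above 0 and 4 below, with a median log2 fold change of -0.000735, beside 0.000732 for all tested genes.

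**Figure D1:**
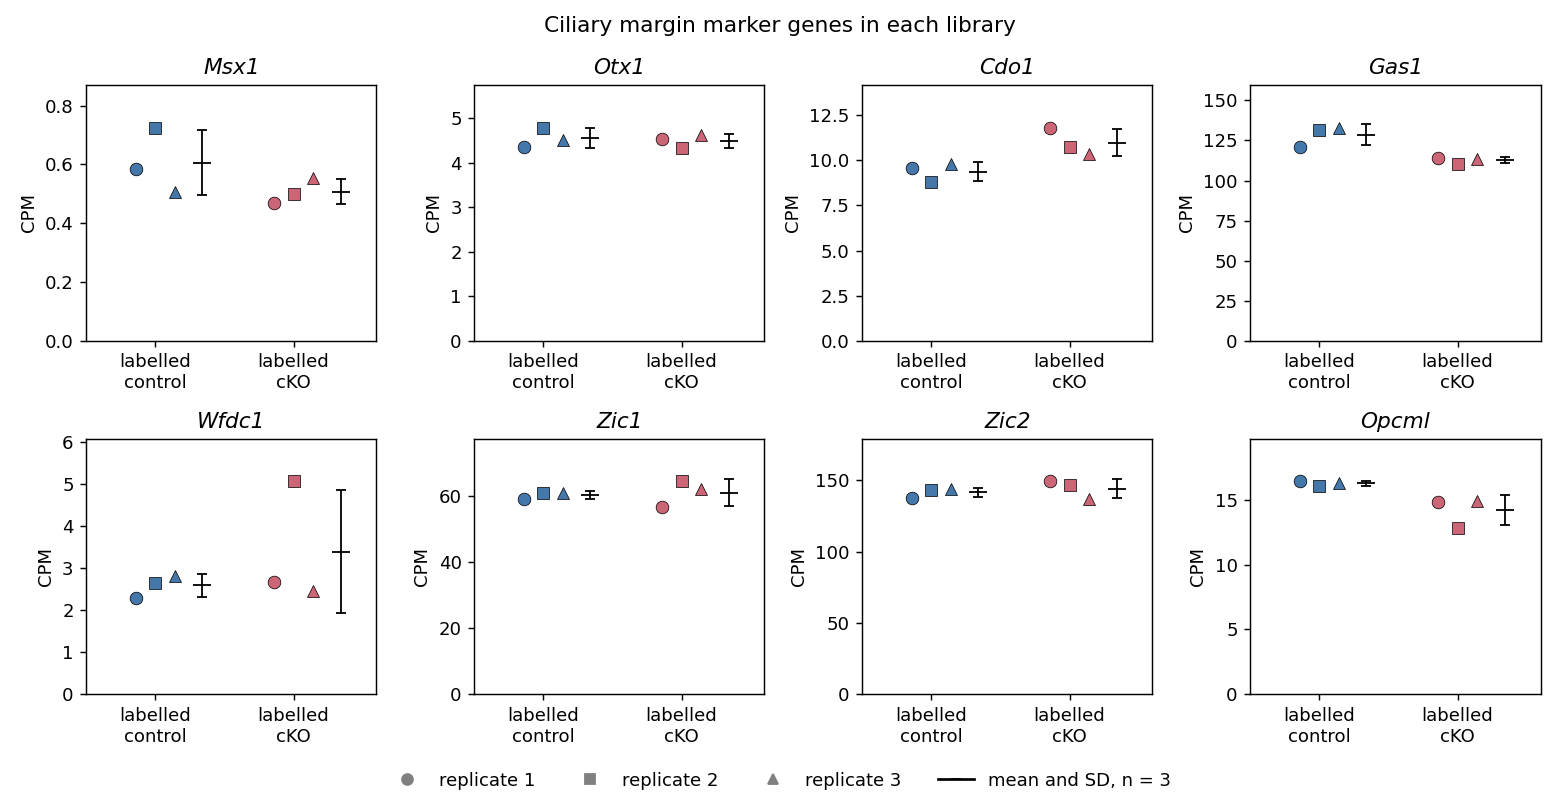
CPM (vertical axes from 0) of each marker gene in each library. Blue points are labelled control and red points labelled cKO, the symbol gives the replicate number, and the bar shows mean and SD (n = 3). Gas1 and Opcml lie lower and Cdo1 higher in the libraries labelled cKO without overlap, and 1 labelled cKO library stands apart for Wfdc1 at 5.07 CPM.

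Levels between genes were compared as CPM per kilobase of summed exon length, over all 6 libraries. Zic2 was highest at 49.6 ± 1.69 CPM per kilobase (SD, n = 6), followed by Gas1 at 40.7 ± 3.28 and Zic1 at 10.6 ± 0.46. Cdo1 was at 6.19 ± 0.64, Wfdc1 at 1.95 ± 0.67, Opcml at 1.05 ± 0.09, Otx1 at 0.83 ± 0.03 and Msx1 at 0.18 ± 0.03 CPM per kilobase (SD, n = 6 each). The libraries of neighbouring genes in this order did not overlap, although Opcml and Otx1 came close (lowest Opcml library 0.885, highest Otx1 library 0.884 CPM per kilobase). The level of Zic2 per kilobase was 276 times that of Msx1. The SE of the log2 fold change was 0.05 for Zic2 and 0.39 for Msx1. It did not follow the order per length throughout, being 0.09 for Opcml and 0.10 for Cdo1.

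**Figure D2:**
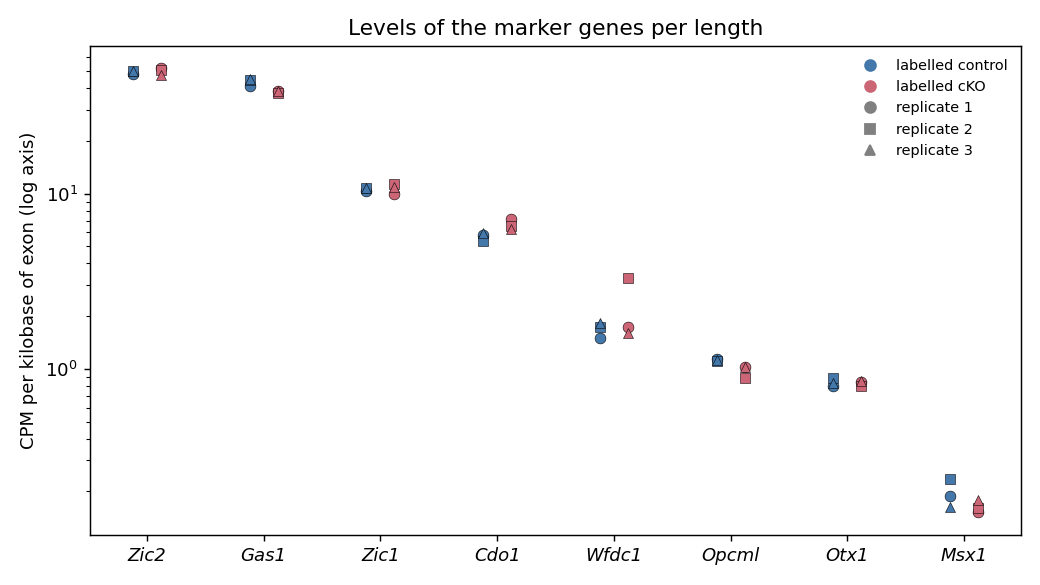
Level of each marker gene as CPM per kilobase of exon (log axis), with genes in order of their mean over all 6 libraries. Blue points are labelled control and red points labelled cKO, with symbols for the replicate number. The order runs from Zic2 at 49.6 to Msx1 at 0.18 CPM per kilobase.

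Gas1 came closest to the threshold. It encodes a membrane-anchored protein that binds Sonic hedgehog and acts as a co-receptor for it. The gene (ENSMUSG00000052957, on the minus strand of chromosome 13, 60174405 to 60177365, mm10) had 2891, 3269 and 3156 counts in labelled control 1, 2 and 3 and 2910, 2659 and 2880 counts in labelled cKO 1, 2 and 3. These were 121, 132 and 133 CPM against 114, 111 and 114 CPM. All libraries labelled cKO lay below all libraries labelled control, by as little as a ratio of 1.06 between control 1 and cKO 1. The group levels were 129 ± 6.63 CPM (SD, n = 3) in labelled control and 113 ± 1.88 CPM (SD, n = 3) in labelled cKO, a difference of -12.3%. The log2 fold change was -0.19 (SE 0.05, 95% interval -0.29 to -0.09) with an edgeR adjusted p of 0.057 and an unadjusted p of 5.64e-04. By p-value Gas1 was 171st of the 17275 tested genes, where 135 passed.

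The call of Gas1 depended on the analysis, while its direction did not. It passed under 6 of 17 alternatives: DESeq2 (adjusted p 0.017), no filter on low counts (0.012), a term for labelled sex (0.048), a block for the replicate number (0.015), removal of the exon length trend (0.026) and leaving out control 1 (0.037). The labelled sex went against the sex-linked genes in control 2 and cKO 2, and the replicate number is not known to pair animals. Gas1 did not pass under limma-voom (adjusted p 0.13) or without cKO 2 (edgeR adjusted p 0.36). Without both control 2 and cKO 2 it did not pass either (log2 fold change -0.16, SE 0.06, edgeR adjusted p 0.71). Over the 17 alternatives the log2 fold change ranged from -0.23 to -0.16. The authors' deposited table lists Gas1 at 0.16 for cKO against control (DESeq2 adjusted p 0.063), which is the opposite sign on the same side of the threshold. The exons of Gas1 share 589 bases with Gm48488, a noncoding gene on the opposite strand that had a mean of 20.2 counts per library against 2961 for Gas1.

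**Figure D3:**
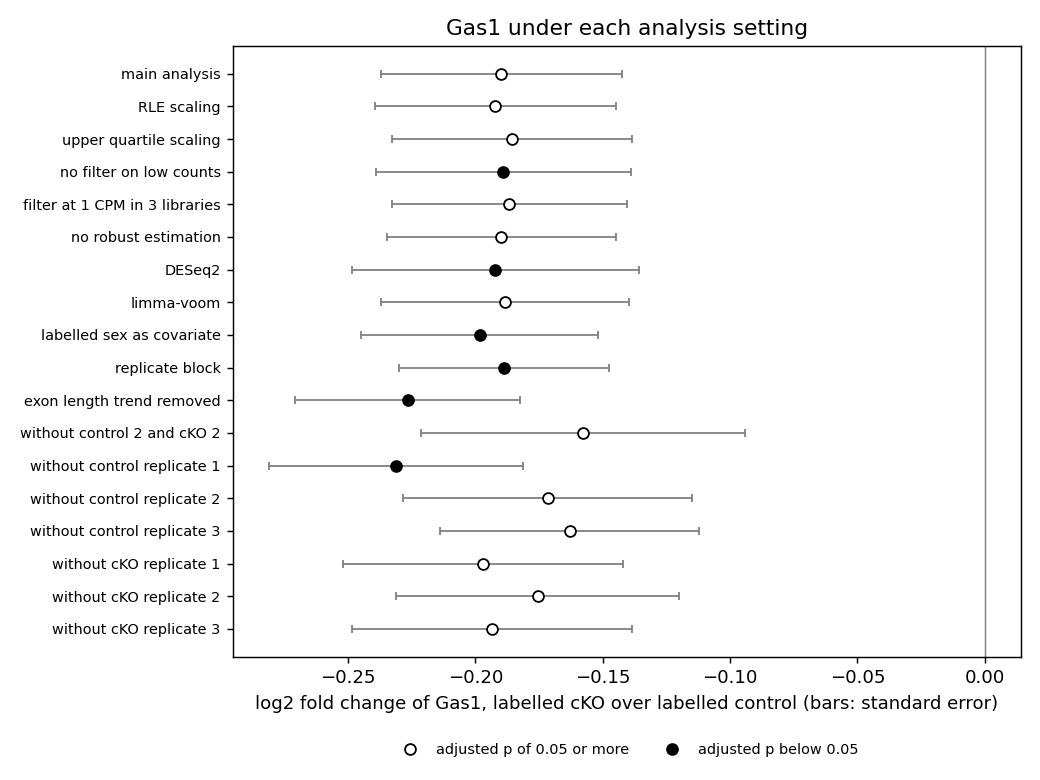
Log2 fold change of Gas1, labelled cKO over labelled control (horizontal axis, bars are the standard error), in the main analysis and under the 17 alternatives (vertical axis). Filled points have an adjusted p below 0.05. All values lie between -0.23 and -0.16, and 6 alternatives pass.

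The genomic sequence just before the RefSeq start is shown for Gas1, the margin marker with the smallest p. That of Msx1, the least abundant of the 8, is set beside it. RefSeq promoter windows (GRCm38.p6) were given for 4 of the 8 genes, Msx1, Gas1, Zic1 and Opcml. The 250 bases upstream of the RefSeq start are printed 5′ to 3′ on the gene's strand, from chr13:60177536-60177785 for Gas1 and chr5:37824586-37824835 for Msx1, both on the minus strand, with each CpG in capitals.
Gas1: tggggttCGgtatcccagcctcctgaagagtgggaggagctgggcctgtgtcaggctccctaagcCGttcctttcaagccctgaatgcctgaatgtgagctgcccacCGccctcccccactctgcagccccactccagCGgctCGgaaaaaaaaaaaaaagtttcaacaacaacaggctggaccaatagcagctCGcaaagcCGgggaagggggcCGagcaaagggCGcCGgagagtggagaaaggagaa
Msx1: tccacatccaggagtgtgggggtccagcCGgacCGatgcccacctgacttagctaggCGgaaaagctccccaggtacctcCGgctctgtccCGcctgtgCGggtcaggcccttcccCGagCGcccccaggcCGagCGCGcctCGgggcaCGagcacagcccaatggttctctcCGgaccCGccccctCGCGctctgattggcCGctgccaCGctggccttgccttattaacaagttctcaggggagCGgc
The windows upstream of the RefSeq start held 10 CpG for Gas1, 20 for Msx1, 27 for Zic1 and 8 for Opcml, beside a median of 6 over 32851 promoters. By the GENCODE positions, the Opcml window (chr9:27791049-27791298) lies inside the gene. The Zic1 window (chr9:91365769-91366018) overlaps the start of Zic1. The Gas1 window (chr13:60177536-60177785) lies upstream of the GENCODE start of Gas1, at 60177365, and does not reach it. The forkhead core TGTTTAC and the TCF/LEF core CTTTGAT, searched on both strands in the full windows of 300 bases, had no match in any of the 4. Of all promoters, 3.65% held the first and 3.73% the second. These counts describe letters in a short window and nothing about binding.

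Hedgehog receptors, co-receptors and effectors were read beside Gas1 as a list of 10 genes. Of these 2 passed the edgeR threshold, Gli3 and Ptch1, both lower in the libraries labelled cKO. Over all tested genes 0.486% passed towards lower levels. At an unadjusted edgeR p below 0.05 there were 6 of the 10, where 16.5% of all tested genes lay. Values of 5 did not overlap between the labelled groups, against 20.1% of all tested genes. DESeq2 called 3, beside 9.61% of all genes given an adjusted p, and limma-voom called 1, beside 0.0753%. The list was chosen with earlier results of these data known. The median log2 fold change of the list was -0.14, beside 0.000732 for all tested genes, and 8 of the 10 lay below 0. Gli3, a transcription factor at the end of the pathway, was at 158 ± 8.46 CPM in labelled control and 127 ± 1.23 CPM in labelled cKO (SD, n = 3 each, log2 fold change -0.31, SE 0.05, edgeR adjusted p 0.0033). Ptch1, the receptor for hedgehog ligands, was at 236 ± 8.14 CPM and 204 ± 2.71 CPM (SD, n = 3 each, log2 fold change -0.21, SE 0.05, edgeR adjusted p 0.049). Cdon, also a co-receptor, had -0.11 on the log2 scale (edgeR adjusted p 0.29), and Boc, another co-receptor, at 0.02 (edgeR adjusted p 0.95). Without control 2 and cKO 2 neither call held, at log2 fold changes of -0.30 for Gli3 (edgeR adjusted p 0.42) and -0.24 for Ptch1 (0.71). In that setting 9 genes passed over the whole table. Gli3 kept its call under 16 of 17 alternatives, among them limma-voom (adjusted p 0.037) and removal of the exon length trend (edgeR adjusted p 0.013). With the exon length trend removed Ptch1 went to -0.10 (edgeR adjusted p 0.36), whereas Gas1 went to -0.23. Leaving out 1 library also ended the call of Ptch1, with an edgeR adjusted p of 0.16 without control 1, 0.13 without control 2, 0.34 without cKO 2 and 0.17 without cKO 3. So did upper quartile scaling (edgeR adjusted p 0.053), the filter at 1 CPM (0.061), no robust estimation (0.12) and limma-voom (0.11).

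Opcml had the other non-overlapping lower values. It encodes a cell adhesion protein of the IgLON family, anchored in the outer membrane of neurons. The gene (ENSMUSG00000062257, chromosome 9, 27790775 to 28925410, plus strand) had 16.4, 16.1 and 16.3 CPM in labelled control 1, 2 and 3 and 14.8, 12.8 and 14.9 CPM in labelled cKO 1, 2 and 3. The labelled control libraries were nearly equal and cKO 2 was the lowest. The difference of -12.8% (log2 fold change -0.20, SE 0.09, 95% interval -0.38 to -0.02) had an edgeR adjusted p of 0.25. Opcml has 14519 bases of exon, and with the exon length trend removed its log2 fold change was -0.09 (edgeR adjusted p 0.71). Without cKO 2 it was -0.13 (edgeR adjusted p 0.68), and without control 2 and cKO 2 it was -0.14 (edgeR adjusted p 0.79). The other IgLON genes tested, Lsamp, Ntm, Negr1 and Iglon5, had log2 fold changes of -0.07, -0.06, -0.04 and -0.07.

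Cdo1 was the marker whose values were higher without overlap. It encodes cysteine dioxygenase, the enzyme that commits cysteine to the route towards taurine. The gene (ENSMUSG00000033022, chromosome 18, 46713193 to 46728395, minus strand) had 9.58, 8.78 and 9.78 CPM in labelled control 1, 2 and 3 and 11.8, 10.8 and 10.3 CPM in labelled cKO 1, 2 and 3. The lowest labelled cKO library stood just above the highest labelled control library. The difference of 17.0% (log2 fold change 0.23, SE 0.10, 95% interval 0.01 to 0.44) had an edgeR adjusted p of 0.27, and it did not pass under any of the 16 alternatives that gave an adjusted p. Without control 2 and cKO 2 the log2 fold change was 0.20 (edgeR adjusted p 0.76). Genes of the same sulphur amino acid route lay nearer to 0. Csad, the next enzyme towards taurine, was at -0.13 on the log2 scale (edgeR adjusted p 0.40). The taurine transporter Slc6a6 was at -0.12 and the related thiol dioxygenase Ado at -0.05 (edgeR adjusted p 0.30 and 0.64).

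Wfdc1, a secreted protein with a WAP domain (ENSMUSG00000023336, chromosome 8, 119666365 to 119688222, plus strand), varied most among the 8. It had 55, 66 and 67 counts in labelled control 1, 2 and 3 and 68, 122 and 62 counts in labelled cKO 1, 2 and 3, or 2.30, 2.66 and 2.82 CPM against 2.66, 5.07 and 2.45 CPM. The library cKO 2 was 1.80 times the next highest, and the other 5 libraries of both groups overlapped. The log2 fold change of 0.38 (SE 0.25, 95% interval -0.14 to 0.90, edgeR adjusted p 0.49) rested on that library and was -0.02 without it. Without control 2 and cKO 2 it was -0.0037 (edgeR adjusted p 0.998). In cKO 2 the lens list summed to 13.1 CPM, the lowest of the 6 libraries, and the pigment epithelium list to 37.4 CPM. Their part in the level of Wfdc1 was not tested.

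Zic1 and Zic2, zinc finger transcription factors of the developing neural tube and eye, were measured closely and lay near 0 change. Zic2, which is also known from the retinal ganglion cells that project to the same side of the brain (ENSMUSG00000061524, chromosome 14, 122475435 to 122479852, plus strand), had 138, 143 and 144 CPM in labelled control 1, 2 and 3. It had 149, 147 and 137 CPM in labelled cKO 1, 2 and 3, so that the labelled cKO group held both the highest and the lowest library. Its log2 fold change was 0.03 (SE 0.05, edgeR adjusted p 0.84), and the 95% interval allows a fold of 0.950 to 1.09. Without control 2 and cKO 2 the log2 fold change was 0.02. Zic1 (ENSMUSG00000032368, chromosome 9, 91358058 to 91365810, minus strand) had 59.0, 61.0 and 60.8 CPM in labelled control 1, 2 and 3 and 56.6, 64.4 and 61.9 CPM in labelled cKO 1, 2 and 3. Again the labelled cKO libraries spanned the labelled control ones. The log2 fold change of Zic1 was 0.02 (SE 0.05, edgeR adjusted p 0.92), with an interval of 0.937 to 1.09 on the fold scale, and the log2 fold change was -0.02 without control 2 and cKO 2.

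Each of these Zic genes has a family member beside it on the opposite strand. The span of Zic4 overlaps that of Zic1, with 60 bases of shared exon, and Zic5 lies 9757 bases from Zic2. Zic4 was at 3.07 ± 0.37 CPM in labelled control and 3.53 ± 0.60 CPM in labelled cKO (SD, n = 3 each, log2 fold change 0.20, edgeR adjusted p 0.63), a low level beside that of Zic1. Zic5 was at 58.6 ± 4.84 and 63.7 ± 2.33 CPM (SD, n = 3 each, log2 fold change 0.12, edgeR adjusted p 0.30). Neither passed.

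Otx1 and Msx1, homeobox transcription factors, were the least abundant per kilobase of exon. Otx1 (ENSMUSG00000005917, chromosome 11, 21994764 to 22002897, minus strand), which acts with Otx2 in the pigmented tissues and ciliary body of the eye, had 4.35, 4.79 and 4.51 CPM in labelled control 1, 2 and 3. It had 4.54, 4.32 and 4.62 CPM in labelled cKO 1, 2 and 3, an overlapping range with control 2 at the top and cKO 2 at the bottom. The log2 fold change was -0.02 (SE 0.14, edgeR adjusted p 0.97), with an interval of 0.803 to 1.21 on the fold scale, and the log2 fold change was 0.05 without control 2 and cKO 2. Msx1 (ENSMUSG00000048450, chromosome 5, 37820485 to 37824583, minus strand), a factor known for its place in the margin and in ciliary body formation, had 14, 18 and 12 counts in labelled control 1, 2 and 3 and 12, 12 and 14 counts in labelled cKO 1, 2 and 3. At this depth the libraries overlapped. Its log2 fold change of -0.26 (SE 0.39, edgeR adjusted p 0.81) has an interval of 0.477 to 1.47 on the fold scale, so a change of the size of any other marker here was not detectable for Msx1. The log2 fold change was -0.10 without control 2 and -0.09 without control 2 and cKO 2.

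The spread between libraries differed among the 8 genes. Over all 6 libraries the coefficient of variation was 34.5% for Wfdc1, 16.6% for Msx1, 10.3% for Cdo1, 8.92% for Opcml, 8.05% for Gas1, 4.35% for Zic1, 3.86% for Otx1 and 3.41% for Zic2. Counting error alone gives 27.0% for Msx1 and 9.48% for Otx1 at their mean counts, above what was seen, and 11.7% for Wfdc1 and 1.84% for Gas1, below it. The library cKO 2 was the highest or the lowest of the 6 for 5 of the 8 genes, cKO 1 for 4 and control 2 for 3. The sex-linked genes went against the label in cKO 2 and control 2.

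The authors' deposited table has the sign reversed for 7 of the 8 genes, Otx1 being the exception at -0.0068. It lists log2 fold changes of 0.22 for Msx1, -0.20 for Cdo1, -0.29 for Wfdc1, -0.03 for Zic1, -0.02 for Zic2 and 0.18 for Opcml. An adjusted p is missing there for 5 of the 8, and none of the other 3 is below 0.05 in the authors' deposited table (0.063 for Gas1, 0.88 for Zic1 and 0.92 for Zic2).

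Other margin genes were read as 2 further lists. Over all tested genes 0.781% passed the edgeR threshold, and in the list of Wnt and collagen genes of the margin 1 of 8 did. This was Axin2, a feedback inhibitor and target of Wnt signalling, with 21.8, 21.6 and 22.0 CPM in labelled control 1, 2 and 3 and 17.3, 17.5 and 17.3 CPM in labelled cKO 1, 2 and 3 (log2 fold change -0.33, SE 0.07, edgeR adjusted p 0.040). Its groups stood apart and varied little. The adjusted p of Axin2 by edgeR was 0.71 without control 2 and cKO 2, at a log2 fold change of -0.34. It was 0.11 without control 1, 0.13 without control 2, 0.24 without cKO 2 and 0.12 without cKO 3, at log2 fold changes between -0.34 and -0.32. The call of Axin2 was also lost with limma-voom (adjusted p 0.11), without robust estimation (0.11) and with the exon length trend removed (0.067), and DESeq2 gave it no adjusted p. The median log2 fold change of this list was -0.07, with 2 genes above 0 and 6 below. Its summed level went the other way, at 504 to 525 CPM in labelled control and 541 to 592 CPM in labelled cKO. At an unadjusted edgeR p below 0.05 there were 2 of the 8, beside 16.5% of all tested genes. Values of 3 did not overlap between the labelled groups, beside 20.1%.

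In the second list, of transcription factors, ligands and other genes of the margin, 7 of 8 genes were tested and none passed. Otx2, a factor of pigment epithelium and photoreceptor precursors, was at 224 ± 2.39 and 229 ± 3.44 CPM in labelled control and labelled cKO (SD, n = 3 each, log2 fold change 0.03, edgeR adjusted p 0.83). Rdh10, an enzyme of retinoic acid synthesis, was at 51.9 ± 6.21 and 47.1 ± 3.36 CPM (SD, n = 3 each, log2 fold change -0.14, edgeR adjusted p 0.39). Msx2, the relative of Msx1, had 1 to 9 counts per library and was not tested. Across this list, the Zic list, the IgLON genes and the sulphur amino acid genes together, edgeR called 0 of 19 tested genes. Over all tested genes it called 0.781%. Of the 19, 1 had an unadjusted edgeR p below 0.05, beside 16.5% of all tested genes. DESeq2 called 0, beside 9.61% of all genes given an adjusted p, and limma-voom 0, beside 0.0753% of all tested genes.

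**Figure D4:**
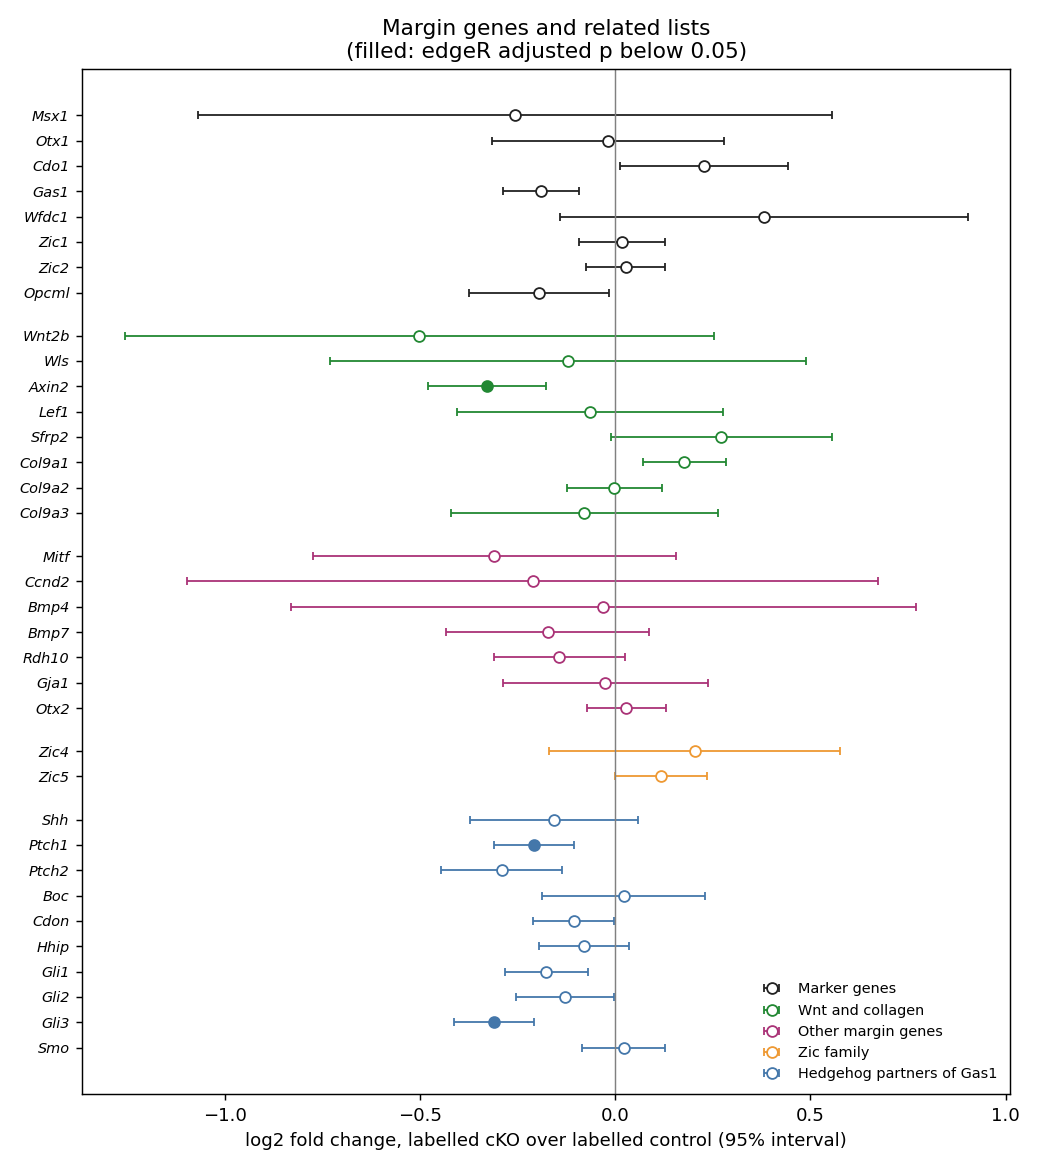
Log2 fold change, labelled cKO over labelled control (horizontal axis, bars are 95% intervals), of the 8 marker genes in black and of genes of 4 related lists in colour. Filled points have an edgeR adjusted p below 0.05. Axin2, Ptch1 and Gli3 are filled, and none of the 8 marker genes is.

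Markers of tissues that touch the margin varied between libraries. The summed level of 9 lens genes ranged from 44.3 to 650 CPM in the labelled control group and from 13.1 to 173 CPM in the labelled cKO group, and Cryaa was detected in every library. The 8 pigment epithelium genes summed to 60.6 to 102 CPM and 34.2 to 98.7 CPM, with Rpe65 at 0 counts in all 3 labelled control libraries and at 2 or fewer in the others. The 10 genes of periocular mesenchyme, a tissue that also makes Gas1 and Msx1, summed to 40.6 to 94.6 CPM and 78.3 to 154 CPM. These 3 ranges overlapped between the groups. The endothelium list summed to 334 to 358 CPM and 302 to 310 CPM without overlap, most of it Kdr, which retinal progenitors also make (322 ± 12.1 and 286 ± 5.02 CPM, SD, n = 3 each, log2 fold change -0.17, edgeR adjusted p 0.091). The muscle list summed to 4.60 to 15.3 CPM and 4.86 to 7.16 CPM. Of 32 tested genes in these 5 lists edgeR called 0, beside 0.781% of all tested genes. At an unadjusted edgeR p below 0.05 there were 2, beside 16.5%. DESeq2 called 1, beside 9.61% of all genes given an adjusted p, and limma-voom 0, beside 0.0753% of all tested genes. The part of these tissues in the levels of the 8 genes was not tested.

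**Figure D5:**
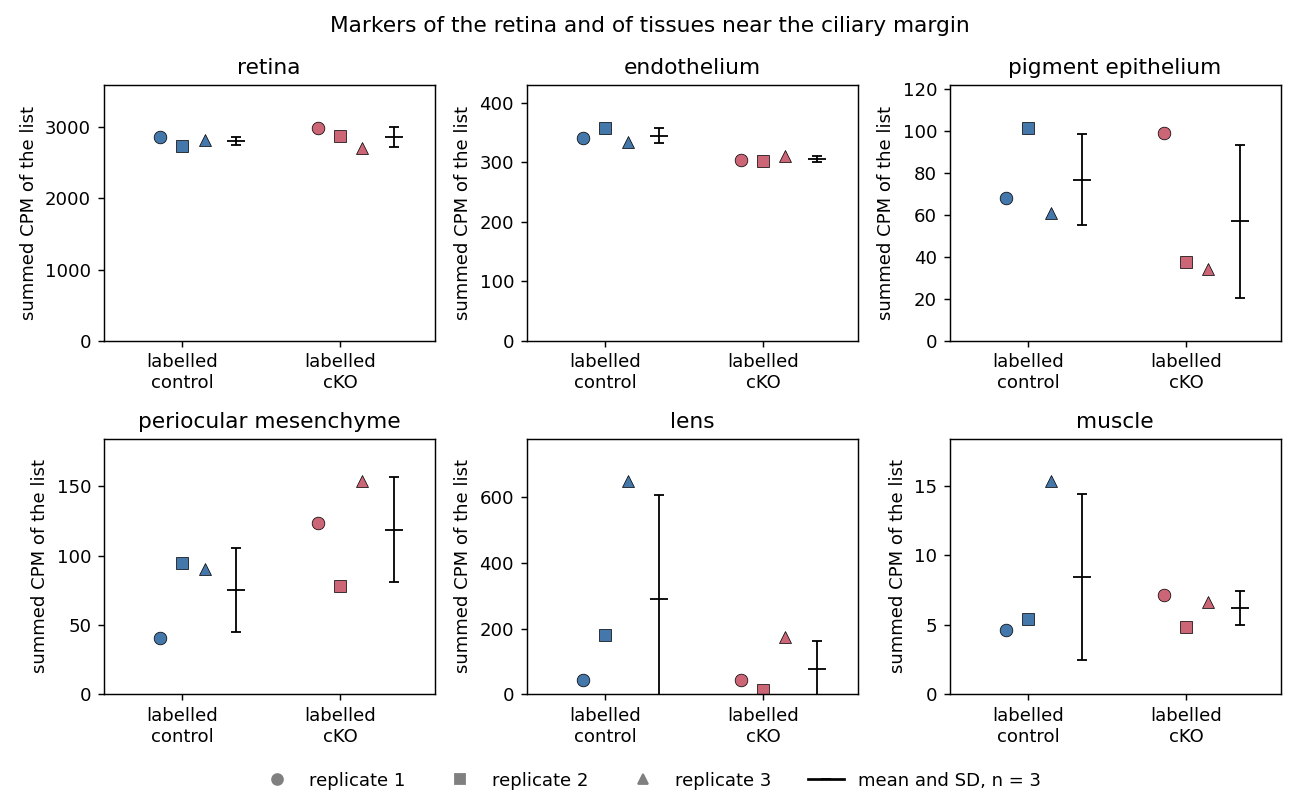
Summed CPM (vertical axes from 0) of the markers of retina and of 5 other tissues in each library. Blue points are labelled control and red points labelled cKO, the symbol gives the replicate number, and the bar shows mean and SD (n = 3). The lens list spans 13.1 to 650 CPM, while the retina list stays between 2713 and 2995 CPM.

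For each marker, the protein-coding genes with the most similar course over the 6 libraries were sought among 12968 candidates, by the root mean square difference of centred log2 values. With 6 libraries and this many candidates, the names are a description only. Ephb1, a guidance receptor of ganglion cell axons, was near Gas1 at 0.022, as was Lrrc75b at 0.022, where the median candidate was at 0.135. Dlx1, a homeobox factor of inner retinal neurons, and Cdk5rap1 were near Cdo1 at 0.030 and 0.029. Mtss2 and Disp3 were near Opcml at 0.025 and 0.026. Wfdc1 had no match as close, with Lrrc46 at 0.099 and Med21 at 0.156. Fancd2 and Ube2a were near Zic1, Hsp90b1 and Clic4 near Zic2, Lin9 and Brd9 near Otx1, and Zfp950 and Gm11808 near Msx1, all at 0.031 or less.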

How the data were processed

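The trimmer and aligner listed in the submitters' processing notes are cutadapt 2.8 and STAR 2.7.6a (mm10 build). The same notes list featureCounts 1.5.1, a read counter, and DESeq2 1.32.0. Strand use in counting is not given in the sources used here. The authors deposited whole-number counts per gene and library, not normalized. The authors' deposited table for cKO against control holds, per the file headers, a mean normalized count (a signal), a log2 fold change with its SE, a test statistic (a score) and a p-value with its adjusted p-value. Columns were matched to samples by their descriptions. Names came from the deposited table, positions and exon lengths from GENCODE M21 (mm10).

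Genes kept by filterByExpr were tested with edgeR 4.0.16 (R 4.3.3): TMM scaling, genotype alone, robust quasi-likelihood, Benjamini-Hochberg adjustment at 0.05 over all 17275 genes. SEs derive from the F statistic, and CPM uses TMM-scaled totals. Each animal is 1 replicate, and within groups no library duplicated another (chi-square over degrees of freedom 7.39 to 12.5 per pair). The scripts were tested on simulated counts. Alternatives were RLE and upper quartile scaling, other filters, no robust estimation, DESeq2 1.42.0, limma-voom (limma 3.58.1), labelled sex, a replicate block, removal of the exon length trend by lowess offsets (span 0.3), and left-out libraries. The labels name no batch.

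The members and lists were chosen with earlier results of these data known. Named were all members, Foxp1, up to 4 called genes per direction of a list or else its 2 most abundant, and the 2 genes most like each member by log2(CPM + 0.5), with a mean of at least 1 CPM. The other genes named in the Hedgehog, IgLON, Zic, sulphur, lens, pigment epithelium and retina lists, and Msx2 and Gm48488, were chosen after their values were seen. A few list genes are not reported singly.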

Additional observations from a re-analysis of the deposited data

How the results depend on the processing

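The number of genes called over the whole table moved widely. From 135 it went to 742 with no filter on low counts, 83 with a filter at 1 CPM, 10 without robust estimation, 566 with DESeq2, 13 with limma-voom, 38 with the exon length trend removed and 9 without control 2 and cKO 2. Leaving out 1 library gave 19 (without cKO 2) to 778 (without control 3). Among the 8 markers, 0 passed in the main analysis. It was 1, Gas1 each time, with no filter, DESeq2, labelled sex as a covariate and the exon length trend removed, and 0 to 1 with 1 library left out. Of the 39 genes in the related lists 37 were tested and 3 passed (8.11%, beside 0.781% of all tested genes). This became 7 with no filter, 1 without robust estimation, 1 with limma-voom, 1 with the length trend removed, 0 without control 2 and cKO 2, and 1 to 5 with 1 library left out. The cause of these changes was not tested.

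With the replicate number as a replicate block, 1065 genes, 1 marker (Gas1) and 6 related genes passed. Whether the replicate numbers pair animals is not known. The correlation of deviations was 0.12, -0.06 and 0.25 for the pairs numbered 1, 2 and 3. Among the labelled cKO libraries, cKO 1 and cKO 3 were closest to the control of their own number. The library cKO 2 was closest to control 1, at 0.20.

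Signs reversed only for markers near 0 or resting on cKO 2. Otx1 went to 0.048, Wfdc1 to -0.0037 and Zic1 to -0.015 without control 2 and cKO 2. Zic1 was -0.014 with labelled sex as a covariate, and Zic2 was -0.011 with the length trend removed. Leaving out 1 library gave -0.049 to 0.021 for Otx1, -0.022 to 0.57 for Wfdc1, -0.37 to -0.10 for Msx1 and -0.024 to 0.068 for Zic1. Msx1, Cdo1, Gas1 and Opcml kept their sign under every alternative that tested them. Msx1 was not tested with the filter at 1 CPM. DESeq2 gave no adjusted p for 5 of the 8. Depth limits Msx1 most, at 12 to 18 counts per library.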
